A study of Homo sapiens with 6 samples.

Results

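The sestrin genes SESN1, SESN2 and SESN3 and 7 further regulators of the kinase complex mTORC1 (DDIT4, DEPTOR, TSC1, TSC2, RHEB, RPTOR and MTOR) were followed in A375 cells, an established human melanoma line. The 10 genes were chosen by symbol and found, 1 row each, in a table of 25662 genes. Cells were given 1 µM BMH-21 for 24 hours (3 libraries) or served as DMSO controls (3 libraries), and both groups were grown in DMEM with 10% serum. BMH-21 intercalates into DNA and inhibits transcription by RNA polymerase I, which makes ribosomal RNA. The titles of the control libraries carry the time 0 h while the treatment protocol names DMSO, so the controls' time in culture is not settled. All libraries come from a single line, and the labels do not say whether the replicates were separate cultures.

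mTORC1 is the lysosomal protein kinase that switches on protein and ribosome synthesis when amino acids, growth factors and energy are sufficient. Amino acids act through the Rag GTPases, which bring the complex to the lysosome, and growth factors act through the TSC complex, which keeps the small GTPase RHEB from activating it. Sestrins hold back the amino acid branch by binding the GATOR2 complex, DDIT4 (also called REDD1) acts on the TSC branch, and DEPTOR binds and inhibits the kinase itself. SESN2 and DDIT4 are known targets of the stress factor ATF4, and SESN3 is known as a target of FOXO factors.

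Levels are TPM, a relative abundance per transcript length that the authors scaled to the same total in every library, so the amount of RNA per cell was not measured and a lower level cannot be told apart from a smaller share of cells that make the transcript. Depth is unknown because TPM keeps no read totals. The TPM columns summed to between 989360 and 990760. In the BMH-21 libraries 19326 to 19867 genes were above 0, against 18268 to 18767 in the controls. Control replicate 2 stood apart, with 7.61% of its TPM from mitochondrially encoded genes against 10.9% and 13.7% in the other controls and 12.4% to 14.6% with BMH-21. The share of ribosomal protein genes was 23.7% to 26.3% with BMH-21, against 33.3% in this control and 25.9% and 27.7% in its fellow controls. BMH-21 replicate 2 lay at the other end, with the highest mitochondrial share (14.6%) and the lowest ribosomal protein share (23.7%) of all libraries. The melanocyte lineage genes SOX10, S100A1 and S100B were abundant, with SOX10 at a mean of 654 TPM with BMH-21 and 540.5 TPM in controls. MITF was low (1.29 TPM with BMH-21, 1.415 TPM in controls), as was PMEL (1.70 TPM with BMH-21, 0.809 TPM in controls). The pigment genes MLANA, TYR and DCT were at or near 0, and 5 of 8 lineage markers reached a mean of 1 TPM. Of the markers of other cell types, the 3 of keratinocytes, mostly KRT10, summed to between 43.9 and 48.4 TPM with BMH-21 and between 27.02 and 31.8 TPM in controls, and the 4 of fibroblasts to at most 4.27 TPM with BMH-21 and 4.73 TPM in controls. Those of endothelial cells summed to at most 1.15 TPM with BMH-21 and 1.34 TPM in controls, and those of immune cells, nearly all of it LYZ, to between 8.63 and 11 TPM with BMH-21 and between 2.64 and 2.94 TPM in controls. Their part in the results was not tested.

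Changes were tested with limma on log2(TPM + 1) over the 12481 genes with a mean of at least 1 TPM, and a gene was called at a Benjamini-Hochberg adjusted p under 0.05. The pseudocount of 1 understates the change of low genes. In all, 36.2% of tested genes were called, 23.3% as higher and 12.9% as lower, and the median log2 change over all tested genes was 0.19. Of the calls 64.4% were higher, against 44.2% when libraries were scaled by median of ratios, which put the median at 0.02. Of the 10 members 9 were tested, each with a mean of at least 3.07 TPM in both groups, and SESN3 lay below the limit.

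SESN1, SESN2 and DDIT4 rose, and the other 6 tested members were not called. These 3 of 9 make 33.3%, against 36.2% of all tested genes, and all 3 calls were in the direction that 23.3% of tested genes took. The median log2 change of the tested members was 0.44, against 0.19 over all tested genes. Without control replicate 2 these medians were 0.21 for the members and 0.12 for all tested genes, and with median-of-ratios scaling they were 0.25 and 0.02. In all 9 tested members the BMH-21 libraries did not overlap the controls, 7 higher and 2 lower. Among all tested genes 52.3% were without overlap, 35% higher and 17.3% lower. SESN1 and SESN2 changed by far more than the other members.

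**Figure D1:**
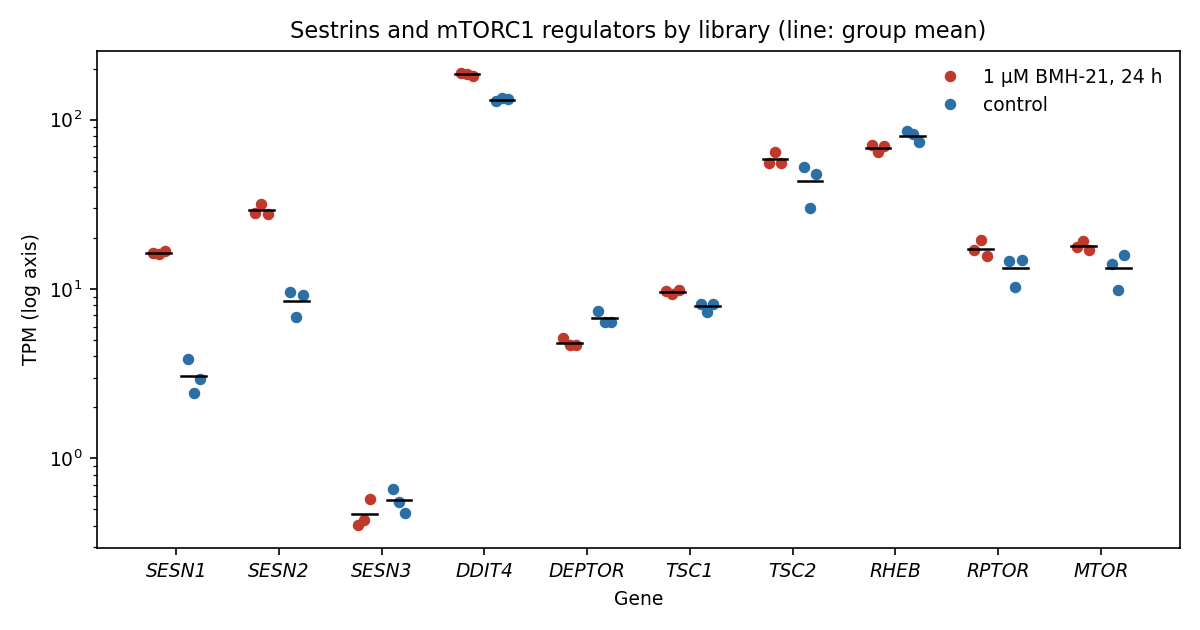
TPM of each member in the 3 BMH-21 libraries (red) and the 3 control libraries (blue) on a log axis, with a line at each group mean. SESN1 and SESN2 show the widest gaps between groups, DDIT4 is the highest member in both groups, and SESN3 lies below 1 TPM in all 6 libraries.

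SESN1 (chromosome 6, 108984309 to 109094846, GRCh38) had 16.2, 16.12 and 16.65 TPM in the BMH-21 libraries, against 3.85, 2.44 and 2.92 TPM in the controls. The 3 treated libraries nearly coincided and each lay far above the highest control. Mean levels were 16.3 ± 0.283 TPM with BMH-21 and 3.07 ± 0.713 TPM in controls (SD, n = 3 each), a ratio of 5.32. The log2 change was 2.10 ± 0.16 (SE), with a 95% interval from 1.73 to 2.47 and a limma adjusted p of 5.296e-05. The rise ranked 72 among 12481 tested genes. For scale, CDKN1A, which encodes the cell cycle inhibitor p21, had a log2 change of 3.35 ± 0.08 and ranked 10.

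SESN2 (chromosome 1, 28259518 to 28282491) encodes the sestrin known as a leucine sensor. It had 28.1, 31.9 and 27.6 TPM with BMH-21, against 9.55, 6.865 and 9.16 TPM in controls. Every treated library was far above every control. Mean levels were 29.2 ± 2.37 TPM with BMH-21 and 8.52 ± 1.45 TPM in controls (SD, n = 3 each), a ratio of 3.43, with a log2 change of 1.68 ± 0.15 (95% interval 1.34 to 2.01, limma adjusted p = 0.000107). The rise ranked 150.

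SESN3 (chromosome 11, 95165513 to 95232475) was listed at 0.403, 0.435 and 0.575 TPM with BMH-21, against 0.6625, 0.556 and 0.4785 TPM in controls. The groups overlapped, and all values were low. In a fit with no filter on low values its log2 change was -0.09 ± 0.09, with a 95% interval from -0.30 to 0.12 and a limma adjusted p of 0.5215. On this scale a gene so low could show little change, so the interval applies to log2(TPM + 1) and not to the ratio of levels.

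Summed over the 3 genes, sestrin transcripts made 44.7, 48.5 and 44.8 TPM with BMH-21, against 14.05, 9.86 and 12.6 TPM in controls. The mean sum was 46.02 ± 2.15 TPM with BMH-21 and 12.16 ± 2.12 TPM in controls (SD, n = 3 each), a ratio of 3.785. SESN2 was the most abundant sestrin in all 6 libraries. SESN1 took 35.5 ± 2.04% of the sum with BMH-21 and 25.1 ± 2.07% in controls, without overlap. The share of SESN2 was 63.4 ± 2.19% with BMH-21 and 70.1 ± 2.54% in controls, and that of SESN3 was 1.03 ± 0.221% with BMH-21 and 4.72 ± 0.913% in controls, also without overlap (SD, n = 3 each). The 3 shares are not independent, since a larger sum lowers the share of a gene that does not change. The TPM of SESN3 itself was low in all 6 libraries and overlapped between groups. The ratio of SESN1 to SESN2 within a library was 1.565 times as high with BMH-21 as in controls, a log2 difference of 0.65. Such ratios do not depend on how a library is scaled. Each of these differences had an exact two-sided permutation p of 0.1, the smallest that 3 against 3 libraries allow, and an adjusted p of 0.1375 over the 11 ratios computed, so none could pass a threshold of 0.05.

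**Figure D2:**
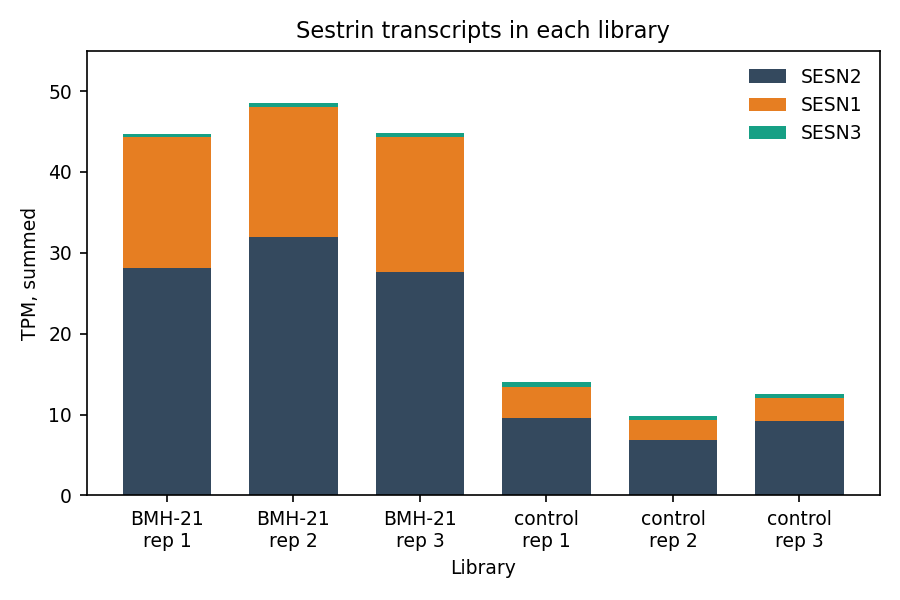
Summed TPM of SESN2, SESN1 and SESN3 (stacked) in each of the 3 BMH-21 and 3 control libraries. The sums lie between 44.7 and 48.5 TPM with BMH-21 and between 9.86 and 14.05 TPM in controls, and SESN3 is a thin top layer in every bar.

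Because SESN1, SESN2 and DDIT4 were the members that rose, the stretches before their annotated starts are shown, from the promoter windows of RefSeq on GRCh38.p14. The windows hold 250 bases before and 50 bases after a start, and printed bases stop before the first exon annotated in GENCODE. Capitals mark the motifs searched on both strands, namely the ATF4 composite element TGATGNAA, the E-box CACGTG, the core of the hypoxia element ACGTG, the GC box GGGCGG and the CCAAT box. Every E-box holds ACGTG on both strands. SESN1 has 3 annotated starts, of which the most upstream (chr6:109094847-109095096, minus strand) and SESN2 (chr1:28259268-28259517, plus strand) and DDIT4 (chr10:72273674-72273919, plus strand) read, 5′ to 3′,
SESN1: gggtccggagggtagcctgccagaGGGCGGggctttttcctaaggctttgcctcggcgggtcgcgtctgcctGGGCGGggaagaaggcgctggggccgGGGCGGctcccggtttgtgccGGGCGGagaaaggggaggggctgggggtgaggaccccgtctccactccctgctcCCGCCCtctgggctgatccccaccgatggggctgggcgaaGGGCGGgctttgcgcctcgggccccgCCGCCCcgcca
SESN2: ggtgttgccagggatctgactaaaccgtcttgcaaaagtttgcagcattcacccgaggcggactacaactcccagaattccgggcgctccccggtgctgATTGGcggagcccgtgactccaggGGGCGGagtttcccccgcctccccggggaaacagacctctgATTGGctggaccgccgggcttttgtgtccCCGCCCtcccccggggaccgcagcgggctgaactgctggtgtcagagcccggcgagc
DDIT4: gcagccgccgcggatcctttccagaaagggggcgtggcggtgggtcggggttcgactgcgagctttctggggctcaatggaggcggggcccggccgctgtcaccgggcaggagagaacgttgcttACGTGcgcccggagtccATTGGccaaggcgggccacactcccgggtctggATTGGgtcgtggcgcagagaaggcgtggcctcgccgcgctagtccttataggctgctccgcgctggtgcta

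The printed SESN1 stretch holds 7 GC boxes, read on either strand, and none of the other motifs. This differs at the other 2 annotated SESN1 starts, whose windows each hold 1 CCAAT box, beside 5 GC boxes in one and 1 in the most downstream. The SESN2 stretch has GGGCGG in 2 places and CCAAT, read on the other strand, in 2 places and no match to TGATGNAA. DDIT4 has 1 ACGTG, 125 bases before the start, and 2 CCAAT boxes read on the other strand. Of the 12 windows searched, which belong to the 9 members other than DEPTOR, 9 hold GGGCGG, 6 hold CCAAT and 3 hold ACGTG. Among all 35116 windows ACGTG is found in 21.4%, GGGCGG in 45.0% and CCAAT in 34.6%. The 12 windows are not 12 separate genes, since 3 belong to SESN1 and 2 overlapping ones to TSC2. Their G and C content ran from 45.0% (SESN3) to 75.0% (the most upstream SESN1 start), against a median of 58.7% over all windows. Only the windows of SESN3, RPTOR and the most downstream SESN1 start lay below that median. The TSC2 window that ends at 2048034 on chromosome 16 was the only searched member window with CACGTG (7.26% of all windows) and with TGATGNAA (3.62%), and the matches overlap. A match describes letters in this window only, and the TPM table does not separate the starts of SESN1.

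DDIT4 (chromosome 10, 72273924 to 72276036) links hypoxia, energy and DNA damage stress to the TSC complex. It had 187, 186 and 181.5 TPM with BMH-21, against 129, 133 and 131 TPM in controls. The replicates were tight and the groups did not overlap. Mean levels were 185 ± 3.08 TPM with BMH-21 and 131 ± 2.14 TPM in controls (SD, n = 3 each), a ratio of 1.41, with a log2 change of 0.49 ± 0.07 (95% interval 0.33 to 0.66, limma adjusted p = 0.00155). The rise ranked 2947 and its log2 change lay 0.31 above the median gene. With median-of-ratios scaling the log2 change was 0.30 and the call was lost (limma adjusted p = 0.0607). Of the 10 members it was the most abundant in both groups, at percentile 94.5 of tested genes with BMH-21 and 92.1 in controls.

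DEPTOR, on chromosome 8, encodes the inhibitor that binds mTOR in both of its complexes. Levels were 5.15, 4.675 and 4.66 TPM with BMH-21, against 7.43, 6.35 and 6.41 TPM in controls, without overlap. Means were 4.83 ± 0.28 TPM with BMH-21 and 6.73 ± 0.607 TPM in controls (SD, n = 3 each), with a log2 change of -0.41 ± 0.14 (95% interval -0.73 to -0.08), which just missed the threshold (limma adjusted p = 0.0526). It passed as lower under 8 of 16 alternative settings, among them median-of-ratios scaling (-0.57, limma adjusted p = 0.0087) and the fit without control replicate 2 (-0.44, limma adjusted p = 0.03275). Over all 16 settings the log2 change ran from -0.59 to -0.34 and the adjusted p in limma from 0.003915 to 0.162. Relative to MTOR in the same library DEPTOR was at 0.519 times its control value, with no overlap between groups (exact permutation p = 0.1, adjusted p = 0.1375). That value also holds the uncalled rise of MTOR (ratio of means 1.36), which was lowest in control replicate 2. DEPTOR alone had a ratio of means of 0.717.

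The TSC complex genes were higher in each BMH-21 library than in any control but did not pass the test. TSC2 (chromosome 16, 2047985 to 2089491) encodes the subunit that inactivates RHEB. Its levels were 55.3, 64.6 and 55.5 TPM with BMH-21, against 52.5, 30.1 and 47.98 TPM in controls, so the gap between groups was small beside the spread of the controls. The log2 change was 0.45 ± 0.20 (95% interval 0.00 to 0.90, limma adjusted p = 0.1055), and without control replicate 2, the lowest library, it was 0.21 (limma adjusted p = 0.137). TSC1 (chromosome 9, 132891349 to 132945378) encodes the subunit that stabilises TSC2. Its levels were 9.77, 9.36 and 9.81 TPM with BMH-21, against 8.20, 7.28 and 8.16 TPM in controls, a log2 change of 0.26 ± 0.13 (95% interval -0.03 to 0.55, limma adjusted p = 0.137) that lay close to the median of all tested genes and was 0.09 with median-of-ratios scaling. TSC2 was the more abundant of the pair in all 6 libraries, and the log2 ratio of TSC1 to TSC2 was -2.60 ± 0.17 with BMH-21 and -2.43 ± 0.33 in controls, with overlap (exact permutation p = 0.6, adjusted p = 0.66).

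RHEB (chromosome 7, 151466012 to 151519895) encodes the GTPase that activates mTORC1. Levels were 70.9, 64.2 and 69.4 TPM with BMH-21, against 85.2, 82.2 and 73.9 TPM in controls. The treated libraries were all below the controls, by a narrow margin. The log2 change was -0.23 ± 0.09 (95% interval -0.45 to -0.02) and was not called (limma adjusted p = 0.0811). RHEB passed as lower with median-of-ratios scaling (-0.43, limma adjusted p = 0.0201) and with length and GC trends removed (-0.40, limma adjusted p = 0.007155). The ratio of RHEB to TSC2, its inactivating partner, with BMH-21 was 0.616 times that in controls (log2 difference -0.70, exact permutation p = 0.1, adjusted p = 0.1375), and without control replicate 2 the log2 difference was -0.44. RHEB has processed pseudogenes, whose reads could not be separated here with certainty.

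MTOR (chromosome 1, 11106535 to 11262551), the kinase, and RPTOR (chromosome 17, 80544838 to 80966368), the scaffold that presents substrates to it, had nearly equal levels. MTOR was at 17.8, 19.15 and 17.01 TPM with BMH-21, against 13.97, 9.904 and 15.8 TPM in controls. RPTOR was at 16.9, 19.4 and 15.6 TPM with BMH-21, against 14.7, 10.3 and 14.9 TPM in controls. Both genes were lowest in control replicate 2 and highest in BMH-21 replicate 2. The log2 change was 0.44 ± 0.17 for MTOR (95% interval 0.04 to 0.83, limma adjusted p = 0.079) and 0.37 ± 0.17 for RPTOR (95% interval -0.01 to 0.75, limma adjusted p = 0.118). Without control replicate 2 these values were 0.26 for MTOR (limma adjusted p = 0.0975) and 0.21 for RPTOR (limma adjusted p = 0.201). The log2 ratio of RPTOR to MTOR was -0.06 ± 0.07 with BMH-21 and 0.01 ± 0.08 in controls (exact permutation p = 0.3, adjusted p = 0.367).

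**Figure D3:**
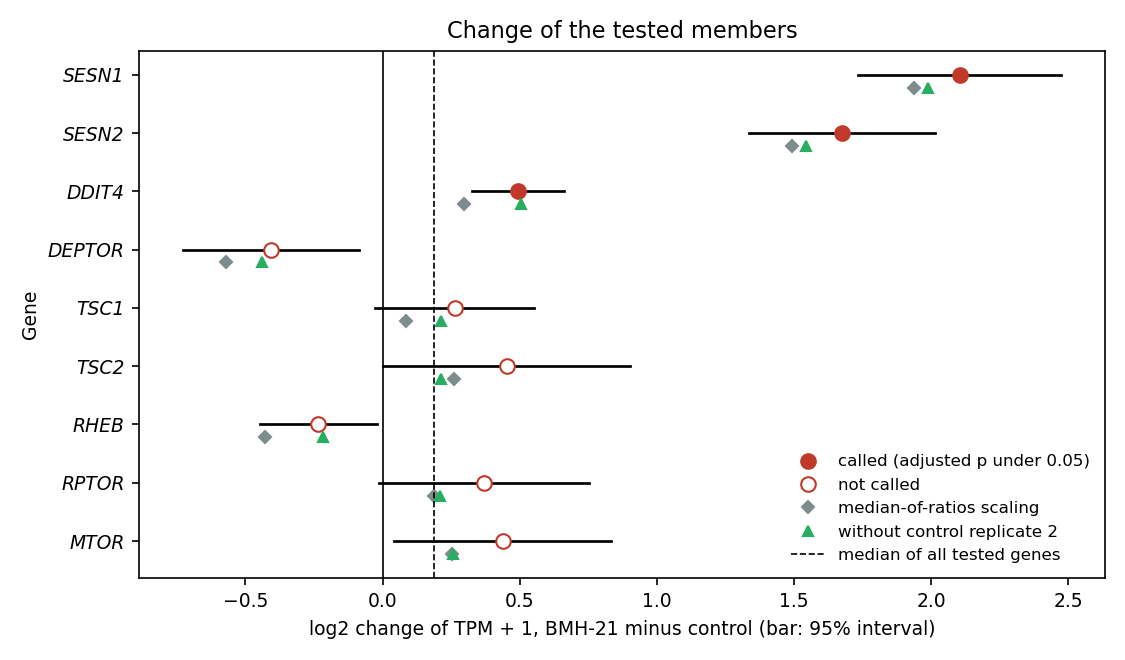
log2 change of TPM + 1 (BMH-21 minus control) with its 95% interval for the 9 tested members, filled where called, beside the values with median-of-ratios scaling (grey) and without control replicate 2 (green). SESN1 and SESN2 stand far to the right under each of these settings, and the dashed line marks the median of all tested genes, 0.19.

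Control replicate 2 had the lowest value of all 6 libraries in 6 of 10 members, namely SESN1, SESN2, TSC1, TSC2, RPTOR and MTOR. Leaving it out moved the log2 changes of TSC2, RPTOR and MTOR by more than 1.5 times, while SESN1 stayed at 1.99 and SESN2 at 1.54. TSC2, RPTOR, MTOR and SESN2 were also highest in BMH-21 replicate 2, which lay at the other end in make-up. The part of the unlike make-up of either library in these values was not tested.

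In order of level with BMH-21 the members ran DDIT4, RHEB, TSC2, SESN2, MTOR, RPTOR, SESN1, TSC1, DEPTOR and SESN3, where RHEB and TSC2, MTOR and RPTOR, and RPTOR and SESN1 overlapped between libraries. In controls the order was DDIT4, RHEB, TSC2, RPTOR, MTOR, SESN2, TSC1, DEPTOR, SESN1 and SESN3. There RPTOR and MTOR, SESN2 and TSC1, SESN2 and DEPTOR, and TSC1 and DEPTOR overlapped. SESN1 thus stood at rank 7 with BMH-21 and rank 9 in controls, and SESN2 at rank 4 with BMH-21 and rank 6 in controls. As a percentile among tested genes SESN1 was at 57.2 with BMH-21 and 24.4 in controls, and SESN2 at 69.6 with BMH-21 and 45.3 in controls.

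The genes whose values over the 6 libraries lay nearest to each member were found by Euclidean distance between centred log2(TPM + 1) profiles. For SESN1 they were GDF15, a stress-induced cytokine gene (distance 0.0805), ADAMTS7, a secreted metalloprotease gene (0.214), and ENC1, which encodes a kelch-repeat protein (0.221). GDF15 averaged 41.01 ± 0.963 TPM with BMH-21 and 9.115 ± 1.725 TPM in controls (SD, n = 3 each). SESN2 had as nearest MMP2, which encodes a gelatinase (0.0654), the stress-responsive kinase gene PLK3 (0.122) and TNFRSF10B, the gene of a TRAIL death receptor (0.136). PLK3 averaged 28.7 ± 1.23 TPM with BMH-21 and 8.62 ± 1.46 TPM in controls (SD, n = 3 each), close to SESN2 in level too. The genes nearest to DDIT4 were the non-coding DENND5B-AS1, ZNF213-AS1 and LINC02953, those nearest to DEPTOR were BUB3, VCX and ATP5MC2, and those nearest to SESN3 were FIRRE, GAPDHP65 and CCT2, with distances between 0.0518 and 0.1075. Profiles over 6 libraries in 2 groups are alike for many genes, and these distances only describe the libraries.

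Outside the 10 members, 111 genes of the pathway in 8 lists were examined, of which 101 were tested. There 22 rose and 12 fell, 33.7% of those tested against 36.2% of all genes, and the median log2 change was 0.20, against 0.19 over all tested genes. Under median-of-ratios scaling the counts were 14 higher and 18 lower, and without BMH-21 replicate 1 they were 14 higher and 9 lower. The counts of single lists stand beside 23.3% higher and 12.9% lower among all tested genes, and several of them moved when 1 library was left out.

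Among the partners of the sestrins, 2 of 16 genes of GATOR, KICSTOR and amino acid sensors rose and 1 fell (18.8% called, median 0.06). Without BMH-21 replicate 2, and with length and GC trends removed, 4 were higher, and at a mean of at least 5 TPM none was. None of the GATOR1 and GATOR2 genes was called with all libraries. CASTOR1, an arginine sensor, rose (4.08 ± 0.5903 TPM with BMH-21, 1.835 ± 0.348 TPM in controls), though a related copy, CASTOR3P, may share its reads, and the KICSTOR subunit gene ITFG2 fell (9.85 ± 0.892 TPM with BMH-21, 19.5 ± 5.07 TPM in controls). Of 12 tested Rag, Ragulator and folliculin genes 4 rose and none fell (33.3% called, median 0.34), with SLC38A9, the lysosomal arginine sensor, at 7.775 ± 0.859 TPM with BMH-21 and 3.201 ± 0.308 TPM in controls (limma adjusted p = 0.0012). LAMTOR3 had the largest change in that list (log2 change 1.13 ± 0.36, limma adjusted p = 0.0399), but its groups overlapped, and without any single one of BMH-21 replicates 1 and 3 and control replicates 1 and 2 the call was lost, with adjusted p up to 0.122. The list's count of higher genes was 2 without BMH-21 replicate 1, where RRAGB (named after its values were seen) also lost its call, and 2 with quantile normalization, while it was 7 without both number 2 libraries.

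Of 10 tested genes for other subunits and assembly factors of the mTOR and TSC complexes, 4 fell and none rose (40% called, median -0.15). These were TELO2, RUVBL2, MLST8 and RUVBL1, the last 3 named after their values were seen. RUVBL1 was called in 0 of 6 fits with 1 library left out and MLST8 in 3 of 6, and the count of lower genes was 2 without BMH-21 replicate 1, BMH-21 replicate 3 or control replicate 3. In this list 1 gene was higher with quantile normalization, with length and GC trends removed and without control replicate 2. TELO2, which helps fold and assemble mTOR, was at 14.7 ± 1.103 TPM with BMH-21 and 25 ± 4.85 TPM in controls (limma adjusted p = 0.0101). AMPK, the energy sensor that acts on TSC2 and RPTOR, had 3 of 9 tested genes higher and none lower (33.3% called, median 0.39). Its subunit gene PRKAB1 was at 50.75 ± 3.58 TPM with BMH-21 and 23.97 ± 0.8898 TPM in controls (limma adjusted p = 0.000146). The AMPK list's higher count was 2 with median-of-ratios scaling and without BMH-21 replicate 1 or 3, and 5 without both number 2 libraries. There 1 gene was lower with median-of-ratios scaling, quantile normalization, length and GC trends removed and without control replicate 2. STRADA, 1 of the 3 higher genes, named after its values were seen, was called in 2 of 6 fits with 1 library left out.

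In the PI3K and AKT list 3 of 17 tested genes rose and 2 fell (29.4% called, median 0.20). Without control replicate 1 5 were higher, and without control replicate 2 4 were lower. PDPK1, the kinase that activates AKT, had a log2 change of 1.01 ± 0.15, the receptor gene IGF1R 1.06 ± 0.22, and GRB10, an adaptor that dampens insulin signalling, -0.99 ± 0.20, with limma adjusted p between 0.001597 and 0.00699. Of 17 mTORC1 substrates and effectors 4 rose and 3 fell (41.2% called, median 0.21). Without BMH-21 replicate 1 only 1 was higher, since RPS6, ULK1 and ATG13 lost their calls, and without BMH-21 replicate 2, BMH-21 replicate 3 or control replicate 3 2 were. RPS6 was called in 7 of 15 alternative settings and MAF1, 1 of the 3 that fell, in 7 of 16. Except for ULK1 these genes were named after their values were seen. EIF4EBP3, a repressor of translation initiation, was at 3.25 ± 0.0851 TPM with BMH-21 and 5.74 ± 0.6404 TPM in controls (limma adjusted p = 0.00933). The autophagy kinase gene ULK1 was called as higher (log2 change 0.77 ± 0.25, limma adjusted p = 0.0464), but in only 6 of 16 alternative settings. Its call was lost without any single one of BMH-21 replicates 1, 2 and 3 and control replicate 3, with a limma adjusted p up to 0.11.

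Of 12 tested genes for factors known or proposed to act on transcription of the sestrins and DDIT4, 3 rose and 1 fell (33.3% called, median 0.36). Without BMH-21 replicate 1 or 3 only 1 was higher, as DDIT3 and SP1 (named after their values were seen) lost their calls, and the same count of 1 was found with median-of-ratios scaling. FOXO4 rose (13.2 ± 0.7815 TPM with BMH-21, 8.46 ± 0.672 TPM in controls), and TP73, which encodes a transcription factor, fell to 0.516 ± 0.073 TPM with BMH-21, against 4.78 ± 1.51 TPM in controls (limma adjusted p = 0.000428). ATF4, named after its values were seen, was at a mean of 189.9 TPM with BMH-21 and 204.6 TPM in controls (limma adjusted p = 0.358). ATF4 protein was not measured, so this level does not show the activity of the factor. DDIT3, in the same list, was called as higher with all libraries (log2 change 0.48 ± 0.14, limma adjusted p = 0.0297). RHEBL1, the relative of RHEB, fell to 1.725 ± 0.309 TPM with BMH-21, against 7.43 ± 0.895 TPM in controls, a log2 change of -1.63 ± 0.16 (limma adjusted p = 0.000209), and TXNIP, a thioredoxin inhibitor known to stabilise DDIT4, had a log2 change of 1.21 ± 0.08 (limma adjusted p = 2.7e-05). The relatives and partners list held 3 higher and 1 lower of 8 tested (50% called).

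**Figure D4:**
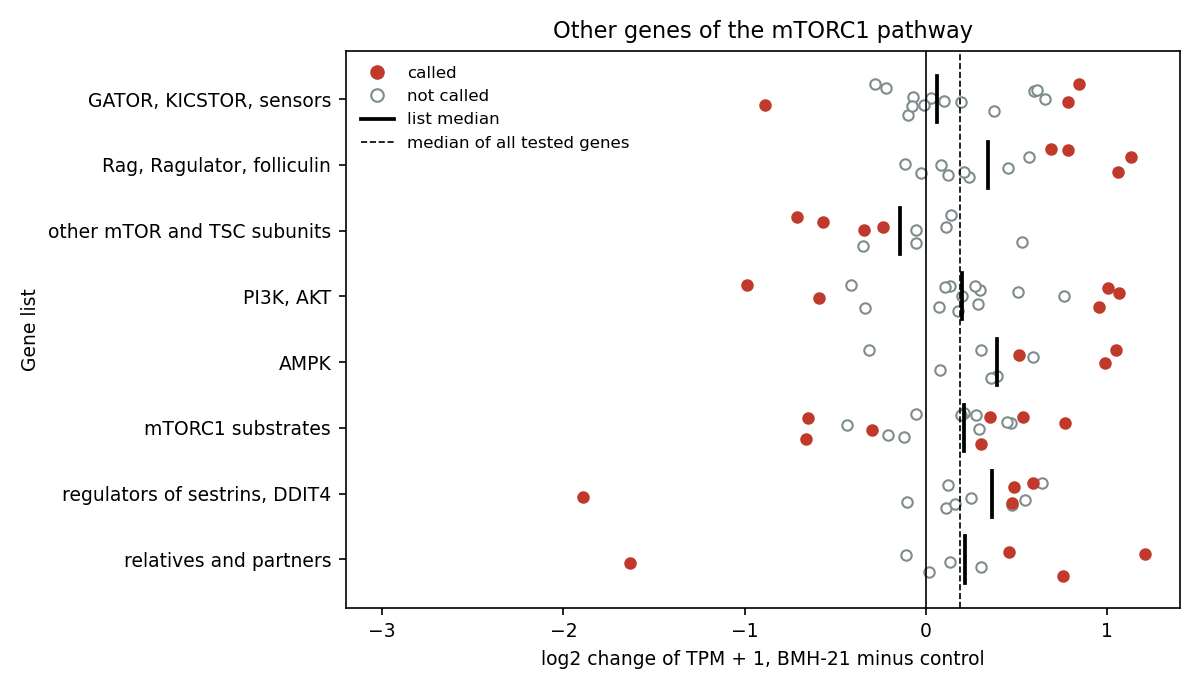
log2 change of TPM + 1 (BMH-21 minus control) of each tested gene in 8 lists of the pathway, filled where called, with a thick line at each list median and a dashed line at the median of all tested genes, 0.19. List medians lie between -0.15 and 0.39, and the largest falls are TP73 and RHEBL1.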

How the data were processed

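RNA of A375 cells was sequenced after ribosomal RNA removal per the labels' protocols, although the labels name the molecule polyA RNA. The deposited values are TPM per gene, which the authors made before deposit; STAR, Salmon and the build GRCh38 are named per the submitters' processing notes. For tool versions, annotation and strand handling the sources used here give nothing. TPM sums to nearly the same total in each library, so a large class of transcripts that moves shifts all others.

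Groups came from the treatment label, with 3 BMH-21 and 3 control libraries. Values were analysed as log2(TPM + 1) over the 12481 genes whose mean TPM was 1 or more, with limma 3.58.1 in R 4.3.3 (lmFit, eBayes with trend, Benjamini-Hochberg over all tested genes, called at adjusted p under 0.05), and tested on simulated data. In the text ± is the SD for TPM and for ratios, and the SE for log2 changes. Ratios within a library were compared by exact two-sided permutation, adjusted over 11 ratios. P-values measure only the spread between these libraries. Genes outside the members were named by rule: in each pathway list the called gene with the largest rise and that with the largest fall and any called gene with a change of at least 1 on the log2 scale, the 3 nearest profiles of 5 members, and CDKN1A. Genes named outside this rule, after their values were seen, are marked as such. The members and lists were chosen with earlier results of these data known. The 16 alternatives changed the pseudocount (0.1), the filter (none, or a mean of 5 TPM), the scaling, the variance model, length and GC trends, the block and the libraries used. Promoter windows came from RefSeq (GRCh38.p14), with 12 windows for 9 of the 10 members, and DEPTOR was not searched. Some items that the list counts include are not reported here by name.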

Additional observations from a re-analysis of the deposited data

How the results depend on the processing

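SESN1 and SESN2 were called as higher under all 16 alternatives, with log2 changes of 1.90 to 2.40 for SESN1 and 1.48 to 1.78 for SESN2, and DDIT4 under 15 (0.30 to 0.51), all but median-of-ratios scaling. With length and GC trends removed 5 members were called as higher (SESN1, SESN2, DDIT4, TSC2 and RPTOR) and 2 as lower (DEPTOR and RHEB), and with median-of-ratios scaling 2 were higher and the same 2 lower. DEPTOR alone was called as lower, 1 member each, with a pseudocount of 0.1, quantile normalization, no mitochondrial and ribosomal protein genes, eBayes without trend and without both number 2 libraries. Leaving out 1 library at a time gave 3 members higher each time and 0 to 1 lower, the 1 being DEPTOR without control replicate 2. Over all tested genes 2908 were higher and 1611 lower. Median-of-ratios scaling gave 1879 higher, leaving out 1 library 1671 to 2838 higher and 1125 to 1991 lower, and removing length and GC trends 2457 lower. Quantile normalization and removal of length and GC trends put the share of higher calls at 50.97% and 52.05%, against 64.35%. In the pathway lists (22 higher, 12 lower) median-of-ratios scaling gave 14 higher, leaving out 1 library 14 to 25 higher, removing length and GC trends 26 higher and 20 lower, and leaving out both number 2 libraries 33 higher and 19 lower. The log2 difference of TSC1/TSC2 (-0.17, BMH-21 minus control) reversed to 0.1165 without both number 2 libraries and ran from -0.2947 to 0.0206 with 1 library left out. That of DDIT4/TSC2 (0.03) was 0.3605 without both number 2 libraries and ran from -0.1337 to 0.291 with 1 library left out, negative without BMH-21 replicate 1 (-0.0125), control replicate 1 or control replicate 3 (-0.0541). Quantile normalization was not run for ratios and shares that involve SESN3, which lies below the filter. The cause of these shifts was not tested. Replicate numbers did not pair the samples (correlations of same-numbered deviations -0.0449, -0.3403 and -0.0779). With the replicate block 3223 genes were called (2008 higher, 1215 lower), with 3 members higher and 0 lower and 16 and 9 pathway genes. No read depth is known, which limits what can be said of SESN3.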
